A study of Mus musculus with 10 samples.

Results

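The 8 genes described here encode core subunits of Polycomb repressive complex 1 (PRC1). They are the chromodomain genes Cbx2, Cbx6, Cbx7 and Cbx8, the Pcgf genes Bmi1 (also known as Pcgf4) and Pcgf2, and the RING finger genes Ring1 and Rnf2. They were chosen by symbol, and all 8 were found among the 24500 genes counted by ChIP-seq in mouse embryonic stem (ES) cells. Control cells were wild-type E14 ES cells. The ex14D-Ezh2 cells (ex14D) were E14 cells whose Ezh2 gene carried a CRISPR-Cas9 in/del in exon 14, so that the only functional EZH2 protein comes from transcripts that skip this exon. The labels call this line a knockout of exon 14 and give the strain 12910la for both genotypes. The library titles read Ezh2KO, which in the paper names a separate line. The assignment to ex14D thus rests on the exon 14 label. Each genotype had 2 libraries with an antibody to H3K27me3, 2 with an antibody to EZH2 and 1 input library, 10 libraries in all. Nothing states whether the libraries of a group came from separate cultures or clones, so p-values measure the spread between these libraries, which may be technical.

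PRC1 and PRC2 are the major Polycomb complexes. PRC2, through EZH2 or EZH1, methylates lysine 27 of histone H3. In canonical PRC1 a Cbx protein binds H3K27me3 with its chromodomain, and the RING proteins, paired with a Pcgf protein, add ubiquitin to histone H2A. In ES cells CBX7 is known as the main Cbx subunit, whereas the genes of other Cbx subunits are switched on as cells differentiate and are known Polycomb targets. The comparison asked how much H3K27me3 and EZH2 lay on the genes of the PRC1 core, and whether either differed when exon 14 of Ezh2 was disrupted.

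The 3 promoter sequences below stand for the strongest H3K27me3 signal among these genes (Cbx8), for the member with both a strong H3K27me3 signal and EZH2 counts (Bmi1), and for a promoter with less H3K27me3 than input (Rnf2). They were chosen with their values known. Each is the 250 bases before the transcription start site (TSS), 5′ to 3′ on the strand of the gene, from RefSeq on GRCm38.p6, with every CG dinucleotide in capitals.
Cbx8, chr11:119040914-119041163, reverse strand: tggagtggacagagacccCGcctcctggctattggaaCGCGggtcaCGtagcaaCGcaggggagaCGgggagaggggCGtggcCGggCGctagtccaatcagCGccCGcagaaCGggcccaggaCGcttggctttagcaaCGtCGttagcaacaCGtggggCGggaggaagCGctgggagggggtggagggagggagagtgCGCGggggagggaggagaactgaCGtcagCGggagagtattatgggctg
Bmi1, chr2:18676768-18677017, forward strand: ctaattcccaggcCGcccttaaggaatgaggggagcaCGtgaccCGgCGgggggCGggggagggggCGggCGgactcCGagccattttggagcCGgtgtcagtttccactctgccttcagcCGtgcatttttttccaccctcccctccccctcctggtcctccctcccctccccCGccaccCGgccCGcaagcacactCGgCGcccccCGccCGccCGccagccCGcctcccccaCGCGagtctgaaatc
Rnf2, chr1:151500992-151501241, reverse strand: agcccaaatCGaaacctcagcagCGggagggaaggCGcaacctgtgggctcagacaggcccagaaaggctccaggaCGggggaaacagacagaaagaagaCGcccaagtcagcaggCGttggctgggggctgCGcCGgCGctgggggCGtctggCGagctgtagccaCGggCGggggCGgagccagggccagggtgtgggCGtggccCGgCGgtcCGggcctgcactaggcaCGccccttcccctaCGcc
The letters CG (the same on both strands) occurred 22 times in the Cbx8 stretch, 21 times in Bmi1 and 20 times in Rnf2. The median over 27025 promoters of the same length was 5, and 91.6% held at least 1. As many or more were found in 14.5% of promoters for Cbx8, 16.1% for Bmi1 and 17.7% for Rnf2. The Cbx6, Cbx7 and Ring1 stretches held 20, 23 and 30. CG-rich stretches were therefore found before genes with much and with little H3K27me3. Pcgf2 held 5 in a stretch before a TSS that lies downstream of the 5′ most one used for the counts. A promoter sequence was available for 7 of the 8 members, all but Cbx2.

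H3K27me3 and input reads were counted by the authors in a 1 kb window centred on the 5′ most TSS. Values are counts per 1000000 reads on genes (CPM), so they are shares of a library, and a change of the mark over the whole genome would not be seen in them. H3K27me3 libraries held 594289 and 937207 reads on genes in control (5.65% and 5.98% of the counted reads). In ex14D they held 1450937 and 1248018 (7.58% and 6.86%), more reads and a higher share than in either control library. Inputs held 409371 to 416778, or 1.9% to 1.92%. EZH2 libraries held 13628137 to 18403892 reads on genes. Libraries of 1 group differed beyond sampling noise (chi-square per degree of freedom 2.91 for control and 2.16 for ex14D H3K27me3, 1.49 for control and 4.01 for ex14D EZH2). As a check of the label, 6 of 6 promoters of developmental genes silent in ES cells had at least 2-fold H3K27me3 over input in both libraries of each genotype. Of 8 promoters of ES cell genes, 1 did so in control (Klf4) and 0 in ex14D. ChIP-seq counts cannot check the disruption of exon 14.

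Only Cbx8 and Bmi1 of the 8 genes had promoters with at least 2-fold H3K27me3 over the input of the same genotype in both libraries, and these genes had it in both genotypes. On the scale log2((CPM + 1)/(input CPM + 1)), this share of members, 2 of 8, is set beside 11.7% of 23756 promoters in control and 9.43% in ex14D. The 23756 are the promoters with H3K27me3 or input reads, whereas the 8 members include Cbx6, which had no such reads. The other members with counts ran from slightly above input (Cbx2) to below it (Pcgf2, Cbx7, Rnf2 and Ring1). With all counted reads as the library size every ratio to input was larger, at 30.2 to 64.3 for Cbx8, 16.3 to 27 for Bmi1, 0.652 to 1.88 for Pcgf2, 0.331 to 1.1 for Cbx7, 0.349 to 0.551 for Rnf2 and, for Ring1, 1.02 and 2.06 in the control and 0.284 and 0.448 in the ex14D libraries, and the order of Cbx8, Bmi1 and Cbx2 above the rest was kept. In cell populations, fewer cells with the mark and less mark per cell cannot be told apart.

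Cbx8, a chromodomain gene of canonical PRC1, had the highest H3K27me3 of the members. It lies on the reverse strand of chromosome 11 (GRCm38, 119038436 to 119040913). Its promoter held 443 and 351 CPM in the control H3K27me3 libraries and 533 and 604 CPM in the ex14D libraries, against 36.6 CPM in the control input and 33.6 CPM in the ex14D input. The ratio of CPM to input was 12.1 (95% interval 7.19 to 21.9) and 9.58 (5.72 to 17.3) in control. It was 15.9 (9.41 to 29.2) and 18.0 (10.7 to 33.1) in ex14D. These exact binomial intervals cover counting error only. All 4 libraries lay far above input, and both ex14D libraries lay above both control libraries.

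Bmi1, whose protein pairs with the RING ligases, came next. It lies on the forward strand of chromosome 2 (18677018 to 18686629). The H3K27me3 libraries held 241 and 235 CPM in control and 351 and 398 CPM in ex14D, and the inputs held 44.0 and 52.8 CPM. Its ratio to input was 5.47 (95% interval 3.34 to 9.5) and 5.34 (3.3 to 9.18) in control and 6.66 (4.35 to 10.7) and 7.54 (4.93 to 12.1) in ex14D. As at Cbx8, the ex14D values did not overlap the control values and were higher.

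Cbx2, a chromodomain gene next to Cbx8, stood between these genes and the rest. It lies on the forward strand of chromosome 11 (119023021 to 119031275), and its TSS is 17.9 kb from that of Cbx8. Its H3K27me3 was 103 and 102 CPM in control and 81.3 and 66.5 CPM in ex14D, against inputs of 61.1 and 60.0 CPM. The log2 enrichment was 0.74 in each control library and 0.43 and 0.15 in ex14D, under the 2-fold limit in every library. With all counted reads in place of reads on genes as the library size, the control libraries gave 1.65 and 1.72 and the ex14D libraries 1.74 and 1.37, and Cbx2 would then be above 2-fold as well.

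Cbx7, the gene of the main Cbx protein of ES cells, had little H3K27me3. On the reverse strand of chromosome 15 (79915807 to 79932646), its promoter held 5.05 and 8.54 CPM in control and 4.82 and 11.2 CPM in ex14D, and its inputs held 24.4 and 57.6 CPM. Every H3K27me3 library was below its input in CPM. With all counted reads as the library size, the ratio in control replicate 2 was 1.1 (0.377 to 3.1). The inputs rest on 10 and 24 reads. Cbx6, a chromodomain gene on the same chromosome (79823898 to 79834333, reverse strand), was listed at 0 in all 10 libraries, inputs included. Its window is identical to that of Npcd, also listed at 0, so 0 reads here give no level.

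Pcgf2 (also known as Mel18) encodes the paralog of Bmi1 and lies on the reverse strand of chromosome 11 (97688823 to 97700497). Its H3K27me3 was 23.6 and 32.0 CPM in control and 13.1 and 9.62 CPM in ex14D, against inputs of 53.7 and 52.8 CPM. The ex14D values were below the control values and all 4 were below input in CPM, although the interval of the ratio in control replicate 2 (0.596, 0.332 to 1.08) includes 1. With all counted reads as the library size, the control libraries were above input, at 1.3 (0.617 to 2.67) and 1.88 (1.05 to 3.41). The ex14D ratios were then 0.98 and 0.652. The Bmi1 and Pcgf2 promoters thus differed, by 238 ± 4.16 CPM (SD, n = 2) against 27.8 ± 5.98 CPM (SD, n = 2) in control, windows of the same length.

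Both genes of the RING ligases had fewer H3K27me3 than input CPM in every library, which for Ring1 in control turned with all counted reads as the library size. Rnf2 (also known as Ring1b) lies on the reverse strand of chromosome 1 (151469398 to 151500991), with 10.1 and 7.47 CPM in control and 5.51 and 9.62 CPM in ex14D, and inputs of 61.1 and 62.4 CPM. These genotypes overlapped. Ring1, on the reverse strand of chromosome 17 (34020792 to 34024680), had 1.68 and 3.2 CPM in control and 1.38 and 2.4 CPM in ex14D, which is 1 to 3 reads a library, and inputs of 4.89 and 19.2 CPM. Of its window, 332 of 1000 bases are shared with no other counted window, and the interval of its ratio to input in control replicate 1 ran from 0.00584 to 6.62, so its low counts are uncertain.

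**Figure D1:**
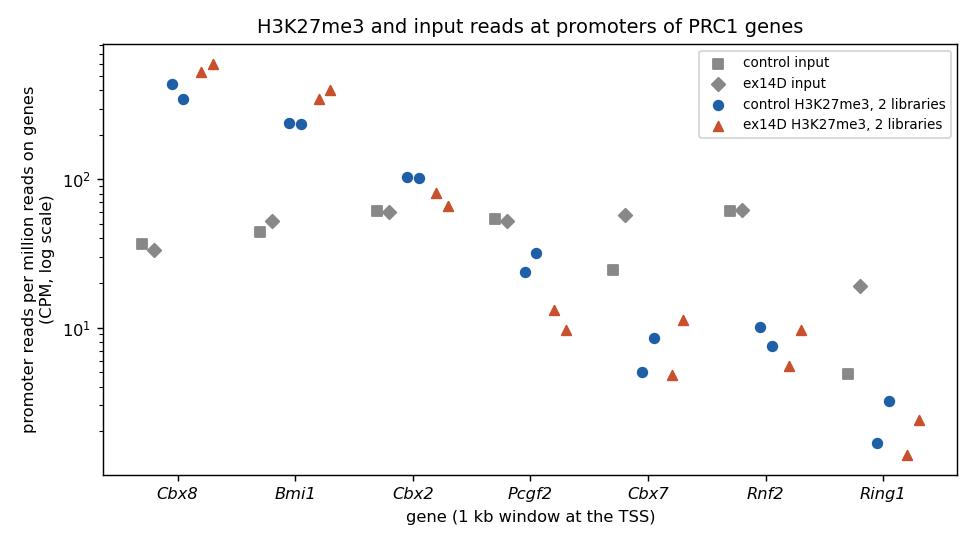
Promoter reads in CPM over reads on genes (log axis) for 7 of the 8 members in each H3K27me3 and input library, 1 point a library (Cbx6, listed at 0, is left out). Cbx8 and Bmi1 lie far above their inputs, and their ex14D points (351 to 604 CPM) lie above their control points, whereas Pcgf2, Cbx7, Rnf2 and Ring1 lie below their ex14D inputs.

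In the order of the control means, Cbx8 (397 ± 64.7 CPM, SD, n = 2), Bmi1 (238 ± 4.16) and Cbx2 (103 ± 0.15) were followed by Pcgf2 (27.8 ± 5.98), Rnf2 (8.78 ± 1.86), Cbx7 (6.79 ± 2.47) and Ring1 (2.44 ± 1.07). In ex14D the means were 569 ± 50 CPM for Cbx8, 375 ± 33.0 for Bmi1, 73.9 ± 10.5 for Cbx2, 11.4 ± 2.46 for Pcgf2, 8.02 ± 4.52 for Cbx7, 7.56 ± 2.9 for Rnf2 and 1.89 ± 0.725 for Ring1. Neighbours among Rnf2 and Cbx7 overlapped in both genotypes, and Pcgf2 overlapped Cbx7 in ex14D. The first 3 places were held by the same genes in both genotypes.

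Between genotypes, H3K27me3 relative to other promoters was higher in ex14D at Bmi1 and Cbx8, and no member passed the test in the other direction. The paper reported less total H3K27me3 in these cells by Western blot. By ChIP-PCR it reported less at developmental genes, Hoxa10 and Hoxd9 among them. As shares of reads on genes, both of these promoters were higher in ex14D here. Hoxa10 held 624 and 617 CPM in control and 1200 and 1590 CPM in ex14D. Hoxd9 held 712 and 598 CPM in control and 1520 and 1850 CPM in ex14D. Total H3K27me3 was not measured here, so a higher share at Bmi1 and Cbx8 need not mean more of the mark. The test was edgeR's quasi-likelihood F test on counts scaled by TMM, which equalizes the bulk of promoters, and p was adjusted (Benjamini-Hochberg) over 14883 promoters. Bmi1 was higher by 1.11 on the log2 scale (standard error 0.20, edgeR adjusted p = 0.000468). Cbx8 was higher by 0.97 (standard error 0.20, edgeR adjusted p = 0.00197). Of the 8 members, 5 passed the filter on low counts, with Cbx7 and Ring1 below it and Cbx6 at 0. Among all promoters tested, 5.85% were higher, 3.19% were lower and 9.04% changed either way. The 2658 tested promoters that had at least 2-fold H3K27me3 in both control libraries, the class of Bmi1 and Cbx8, had a median log2 fold change of 0.33, with 759 higher (28.6%) and 125 lower.

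The other 3 members tested did not pass. Cbx2 had a log2 fold change of -0.02 (standard error 0.26, edgeR adjusted p = 0.978), although its CPM groups did not overlap, since CPM lacks the TMM factors (0.843 to 0.868 in ex14D, 1.16 to 1.18 in control). Pcgf2 had -0.86 (standard error 0.37, edgeR adjusted p = 0.176), and it was the 1 member with a lower value at an unadjusted p under 0.05. Rnf2 had 0.25 (standard error 0.60, edgeR adjusted p = 0.873). The median of the 5 members tested was 0.25, against -0.02 over all promoters. In CPM, 2 members were higher in both ex14D libraries than in both control libraries, as were 9.1% of promoters, and 2 (Cbx2 and Pcgf2) were lower in both, as were 51.2%. DESeq2 also called Bmi1 and Cbx8 higher and 0 members lower. It gave no adjusted p for Pcgf2, for Rnf2 or for 8945 of the 14883 promoters in all, so these could not be called.

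The direction at Bmi1 and Cbx8 was the same under every scaling tried, whereas the call at Cbx8 depended on 1 scaling and both calls on single libraries. Without TMM, scaled to reads on genes alone, the median of all promoters moved to -0.47. Bmi1 then had a log2 fold change of 0.66 (edgeR adjusted p = 0.0235), Cbx8 had 0.52 (edgeR adjusted p = 0.0589) and lost its call, and Pcgf2 had -1.30 (edgeR adjusted p = 0.0172) and was called lower. Over all promoters the split was 475 lower and 871 higher with TMM and 2176 lower and 398 higher without it. It was 585 and 633 when scaled to all counted reads (median -0.15). When centred on unmarked promoters, those under 2-fold over input in every H3K27me3 library, it was 366 and 1084. Without control replicate 2, Bmi1 had 1.04 (edgeR adjusted p = 0.062) and Cbx8 had 0.76 (edgeR adjusted p = 0.114), and neither passed. Without ex14D replicate 2, Cbx8 had 0.88 (edgeR adjusted p = 0.0741) and Bmi1 still passed.

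The H3K27me3 at Cbx8 and Bmi1 was not limited to the promoter. MACS2 broad peaks called by the authors in each library overlapped the promoter windows of 3 of the 8 members, Cbx2, Cbx8 and Bmi1, by at least 1 bp in both libraries of each genotype. Cbx2 dropped out in control when the peak had to have q under 0.001, and in ex14D when it had to cover at least 50% of the window. Over all 24338 genes placed on GRCm38 the share was 18.0% in control and 16.5% in ex14D. The same 3 genes had an EZH2 domain over the promoter in both libraries of each genotype, against 16.8% of genes in control and 10.4% in ex14D.

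The peak over Cbx8 spanned 36.5 and 37.2 kb in control and 35.5 and 32.6 kb in ex14D, and 99.7% to 99.8% of the peaks of a library were narrower. In control replicate 1 it ran from 119031316 to 119067859 on chromosome 11. It covered the whole Cbx8 gene, which is 2.48 kb long, and overlapped no other counted gene. The fold enrichment given by the peak caller was 3.74 and 2.51 in control and 4.38 and 6.15 in ex14D. The EZH2 domain lay inside it, with 30.0 and 32.0 kb in control and 27 and 26 kb in ex14D. Both kinds of interval were thus somewhat narrower in both ex14D libraries, while the fold enrichment of the peak was higher in both. At Cbx2 the fold enrichment given by the caller was also higher in ex14D, although the promoter CPM there was lower.

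At Bmi1 the peak spanned 33.4 and 37.4 kb in control and 33.1 and 32.7 kb in ex14D. In control replicate 1 it ran from 18669217 to 18702605 on chromosome 2. It took in Bmi1 (9.61 kb), all of the upstream neighbour Commd3, whose end lies 0.787 kb before the Bmi1 TSS, and the start of Spag6. Peak fold enrichment was 3.99 and 3.37 in control and 5.0 and 5.52 in ex14D. EZH2 domains of 30.0 and 34.0 kb in control and 29 and 30 kb in ex14D overlapped the same 3 genes in all 4 libraries. Both promoters of these neighbours were also called higher in ex14D for H3K27me3. Spag6 rose by 1.42 (standard error 0.21, edgeR adjusted p = 4.56e-05) and Commd3 by 1.17 (standard error 0.25, edgeR adjusted p = 0.00229). Spag6 did not pass without control replicate 2 (edgeR adjusted p = 0.0626), and Commd3 did not pass without TMM (0.0569), control replicate 2 (0.0538) or ex14D replicate 2 (0.143). For EZH2, Commd3 had a log2 fold change of -0.8 (edgeR adjusted p = 0.0705) and Spag6 had -0.26 (edgeR adjusted p = 0.136). DESeq2 called EZH2 at Commd3 lower (DESeq2 adjusted p = 0.0276) and did not call Spag6 (DESeq2 adjusted p = 0.8). The 3 genes lie in 1 peak and are not independent.

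Cbx2 had narrower peaks near its TSS. It spanned 5.36 and 5.14 kb in control, with a fold enrichment of 1.91 and 1.72 and a −log10 q of 1.1 and 1.04. In ex14D replicate 1 it spanned 6.74 kb with a fold enrichment of 10.7 and a −log10 q of 40.5. In ex14D replicate 2 a peak of 1.53 kb (fold enrichment 2.6) reached into the promoter window but ended before the TSS, and another of 0.995 kb (3.68) lay downstream of the TSS. The ex14D libraries thus differed from each other more than the control libraries did. EZH2 domains at Cbx2 spanned 3.0 and 6.0 kb in control and 3.0 and 3.0 kb in ex14D.

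Ring1 and Pcgf2 had intervals in control replicate 2 alone. Ring1 had a peak of 1.62 kb (fold enrichment 5.78, −log10 q 16.9) and an EZH2 domain of 4.0 kb, and Pcgf2 an EZH2 domain of 1.0 kb. Neither was called in control replicate 1 or in ex14D. Cbx6, Cbx7 and Rnf2 had no interval over the gene or promoter in any of the 8 ChIP libraries.

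**Figure D2:**
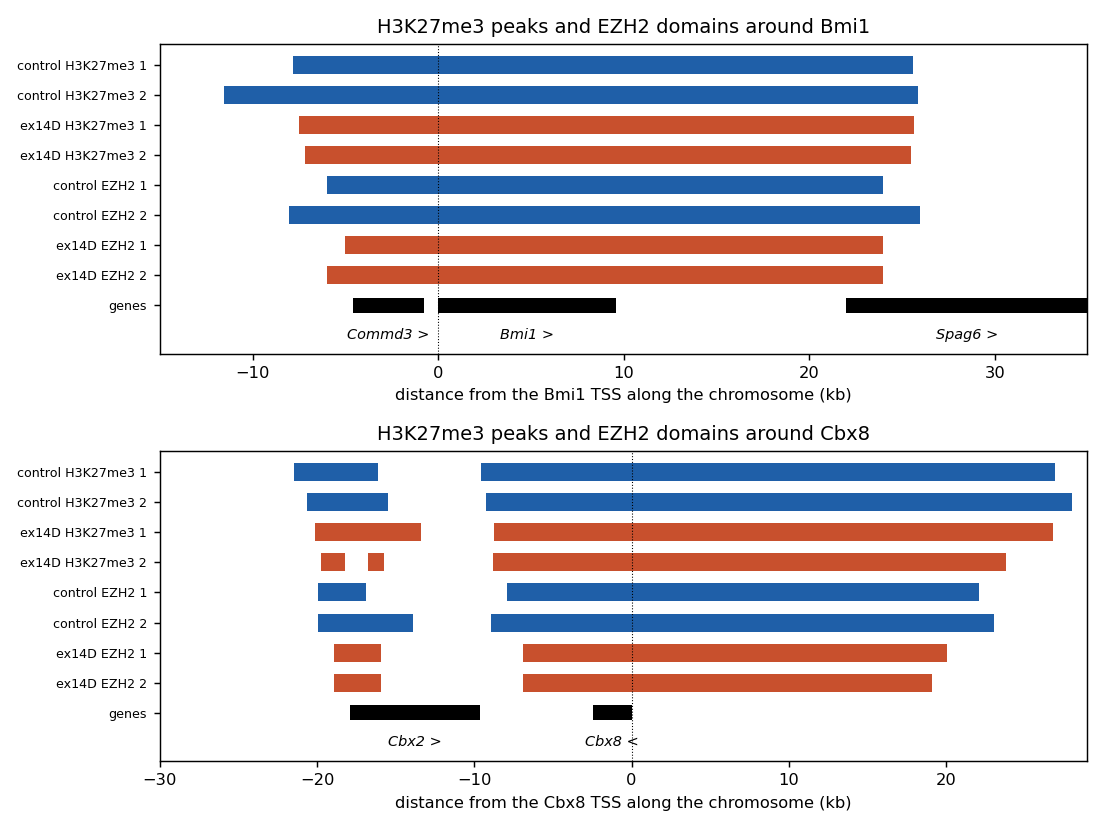
Deposited H3K27me3 peaks and EZH2 domains in each library around the TSS of Bmi1 (upper) and Cbx8 (lower), with gene bodies in black and their direction of transcription as arrows; the x axis is the distance from the TSS along the chromosome in kb. Bmi1 lies in 1 interval with Commd3 and Spag6 in all 8 libraries, and Cbx8 lies in an interval of 26 to 37.2 kb next to the separate intervals of Cbx2.

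EZH2 counts could be compared at Bmi1 and Rnf2 alone. Unlike the H3K27me3 counts, they scaled with the length of the gene and are read as counts over whole genes. The other 6 members were listed at 0 in all 4 EZH2 libraries, Cbx2 and Cbx8 among them, whose promoters had EZH2 domains in every library. They lay in long runs of genes that were all at 0. Cbx2, Cbx8 and Pcgf2 shared a run of 1388 genes over 66.3 Mb of chromosome 11, Cbx6 and Cbx7 a run of 704 genes over 49.6 Mb of chromosome 15, and Ring1 lay in a run of 602 genes over 41.2 Mb of chromosome 17. These zeros therefore say nothing of EZH2 on the genes. On chromosomes 2 and 1, where Bmi1 and Rnf2 lie, 10.6% and 7.41% of genes were at 0, against 95.4% on chromosome 11.

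Bmi1 held 118 and 127 CPM of EZH2 in control and 102 and 72.4 CPM in ex14D. Per kb of gene this was 12.3 and 13.2 CPM in control and 10.6 and 7.54 CPM in ex14D, whereas the median of 13360 genes was 0.97 to 1.03 CPM per kb. In each library 98.1% to 98.5% of genes lay below Bmi1. Rnf2 held 30.4 and 32.2 CPM in control and 35.2 and 31.8 CPM in ex14D, or 0.964, 1.02, 1.11 and 1.01 CPM per kb, close to the median gene. Bmi1 and Rnf2 thus did not overlap in any library, in EZH2 per kb or in H3K27me3.

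**Figure D3:**
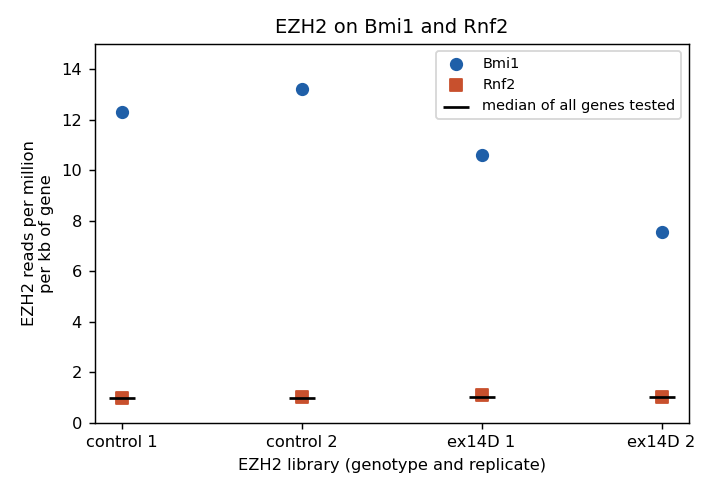
EZH2 counts in CPM per kb of gene for Bmi1 (circles) and Rnf2 (squares) in the 4 EZH2 libraries, with the median of 13360 genes as a bar. Bmi1 lies at 7.54 to 13.2 and Rnf2 at 0.964 to 1.11, near the median.

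Neither gene passed the test between genotypes for EZH2. Bmi1 had a log2 fold change of -0.54 (standard error 0.14, edgeR adjusted p = 0.0715), with both ex14D libraries below both control libraries, as for 18.0% of genes (35.6% had both above). It passed at an unadjusted p under 0.05 (0.00634), and DESeq2 called 0 members. Rnf2 had 0.05 (standard error 0.08, edgeR adjusted p = 0.827), and its libraries overlapped. Of 13401 genes tested, 7.88% were lower in ex14D and 0.0522% were higher, 7.93% either way. At Bmi1 the value rested on ex14D replicate 2, since it was -0.83 without ex14D replicate 1 and -0.30 without ex14D replicate 2. In those fits the spread comes from the control pair alone and the lone ex14D library is assumed to vary like it, and the edgeR adjusted p was then 1.61e-45 and 9.44e-07. At Bmi1 the estimate for EZH2 was thus negative and that for H3K27me3 positive, and a difference between the antibodies was not tested.

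Of 24 other PRC1 genes, 2 were higher in ex14D for H3K27me3, beside 5.85% of all promoters tested. For EZH2 1 was lower, beside 7.88% of all genes tested. The list of 24 holds other Pcgf genes, the Phc genes and subunits of variant PRC1 complexes. Yaf2, Bcor, Bcorl1, E2f6 and Auts2 (5 of 24) had at least 2-fold H3K27me3 over input in both libraries of both genotypes. Over all promoters with reads the share was 11.7% in control and 9.43% in ex14D. Of tested promoters with this level in control, 28.6% were higher in ex14D. For H3K27me3 16 were tested. E2f6, a repressor of a variant complex, rose by 1.28 (standard error 0.22, edgeR adjusted p = 0.000298). Bcor, a subunit of the PCGF1 complex, rose by 0.94 (standard error 0.24, edgeR adjusted p = 0.012), a call lost when scaled to reads on genes without TMM (edgeR adjusted p = 0.174) or to all counted reads (0.122), and on leaving out control replicate 2 (0.21), ex14D replicate 1 (0.145) or ex14D replicate 2 (0.258).

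No other PRC1 gene was lower for H3K27me3 in edgeR, also at an unadjusted p under 0.05, or in DESeq2. The median of the 16 was 0.24. Yaf2 (0.58, edgeR adjusted p = 0.148), Bcorl1 (0.35, 0.401) and Auts2 (0.37, 0.313) did not pass, and the last 2 had values of -0.10 and -0.08 without TMM. For EZH2, 14 of the 24 were tested and 10 were at 0, and the median of the 14 was -0.02, against 0.02 over all genes. Bcorl1, the paralog of Bcor, fell from 119 to 67.3 CPM of EZH2 on average, a log2 fold change of -0.87 (standard error 0.13, edgeR adjusted p = 0.00872). Without control replicate 1 the log2 fold change was -0.94 and without control replicate 2 it was -0.8. The call was lost in both of these fits, as were all other EZH2 calls. Bcorl1 was the only one of the 14 that passed, while 7.88% of all 13401 genes tested were lower. The HP1 genes Cbx1, Cbx3 and Cbx5, chromodomain paralogs outside PRC1, had at least 2-fold H3K27me3 in 0 of 3 cases and no interval over the promoter.

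**Figure D4:**
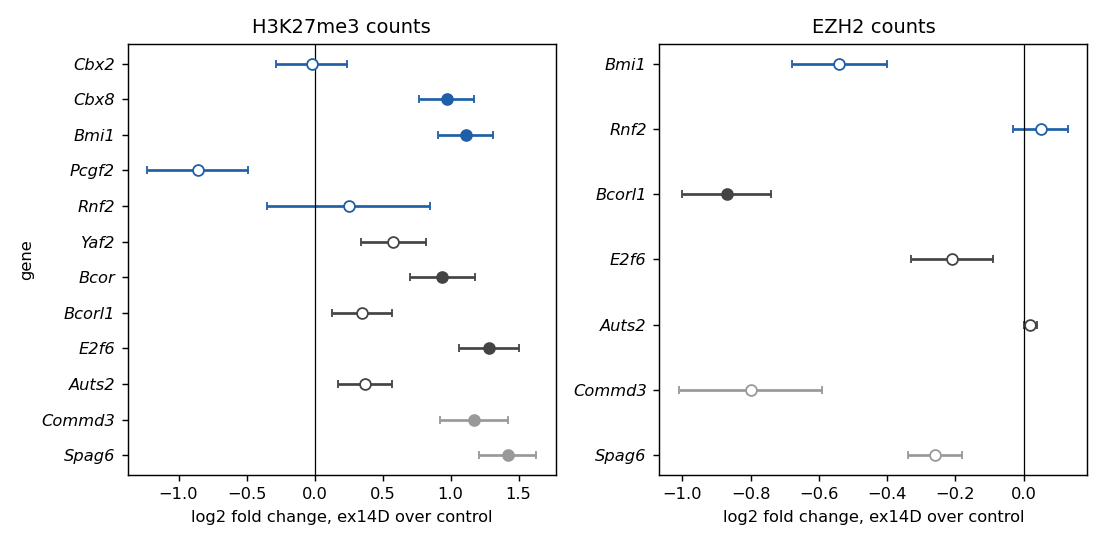
Log2 fold change of ex14D over control with its standard error for H3K27me3 (left) and EZH2 (right) at members (blue), other PRC1 genes with at least 2-fold H3K27me3 (dark grey) and the neighbours of Bmi1 (light grey); filled points passed the edgeR test. Bmi1 (1.11) and Cbx8 (0.97) are filled on the left, and Bcorl1 (-0.87) is the only filled point on the right.

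**Figure D5:**
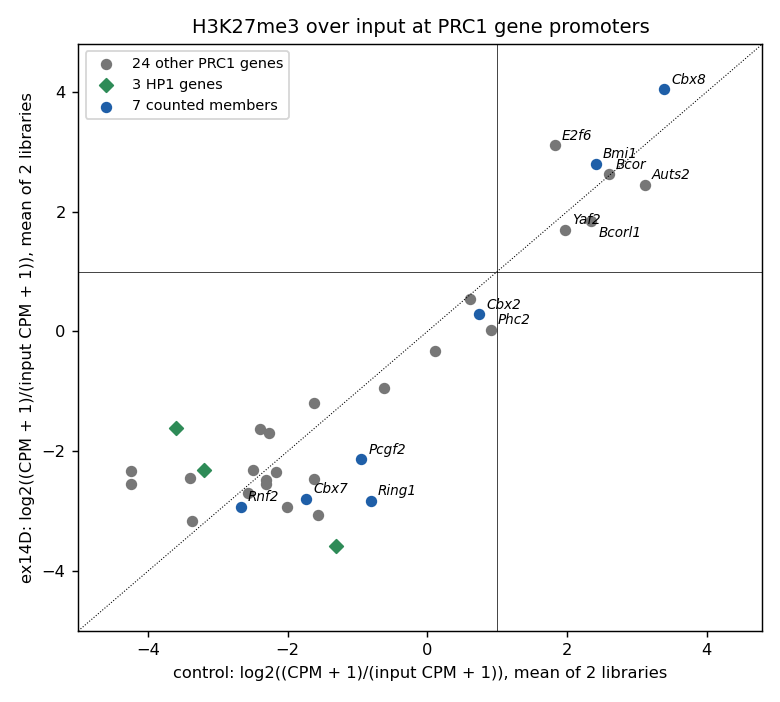
H3K27me3 over input, log2((CPM + 1)/(input CPM + 1)), mean of 2 libraries, in control (x axis) and ex14D (y axis) for 7 members (blue), 24 other PRC1 genes (grey) and 3 HP1 genes (green); solid lines mark 2-fold and the dotted line equal values. Cbx8 and Bmi1 lie above 2-fold on both axes, and Rnf2, Cbx7, Ring1 and Pcgf2 lie below 0 on both.

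The genes whose promoters came closest to Cbx8 and Bmi1 over the 4 H3K27me3 and 2 input libraries were found by the Euclidean distance of log2(CPM + 1), which groups genes of like level. For Cbx8 they were Cdh11 (distance 0.194), Mdga2 (0.207) and Evx1os (0.244). Cdh11 held 441 and 338 CPM in control and 578 and 558 CPM in ex14D, close to Cbx8 in each library. For Bmi1 they were Gm10190 (0.296), Nlgn1 (0.339) and Dock3 (0.385). Gm10190 held 232 and 236 CPM in control and 351 and 337 CPM in ex14D. The matching used these same values, so the shared direction is part of how they were chosen.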

How the data were processed

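The 8 genes and all gene lists were chosen with earlier results of these data known. The authors aligned reads with Bowtie (the submitters' processing notes name Bowtie2, Trimmomatic, MACS2, ChIPseeker and HTSeq, on mm10) and counted them with htseq-count. The authors deposited raw counts for each gene, in 1 kb TSS windows per the methods. EZH2 counts scaled with gene length. Reads assigned to no gene (97.9% to 98.0% in inputs, 92.0% to 94.0% in H3K27me3 and 33.8% to 34.9% in EZH2 libraries) entered library sizes only in the alternative that names all counted reads. The authors called MACS2 broad peaks in each library, and the deposited score (not used), fold enrichment, −log10 p and −log10 q are the caller's. Which control it was given is not named in the sources used here. The authors deposited hiddenDomains positions with no probability, and every deposited EZH2 domain was used. H3K27me3 domains ran past the GRCm38 ends of 8 chromosomes in each library and were not used; EZH2 domains ran past none.

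Groups follow the genotype and antibody of the labels. Of 24500 genes, 24338 were placed on GRCm38 by symbol with RefSeq (822 by an older symbol). Each antibody was fitted alone over all genes with edgeR 4.0.16 in R 4.3.3 (TMM, filterByExpr, library totals recomputed over the genes that passed, quasi-likelihood F test, Benjamini-Hochberg, called under 0.05). Recomputing the totals was chosen after both ways had been seen, and Bmi1 and Cbx8 passed either way. Standard errors are approximate (log2 fold change over the square root of F). Enrichment over input used a pseudocount of 1 CPM and the 1 input of each genotype, with no test. EZH2 enrichment over input was not computed, since EZH2 and input windows differ. An interval counted over a promoter with at least 1 bp of overlap with the 1000 bp window. Named genes were the 8 members, other PRC1 genes past the threshold or at least 2-fold over input in both control libraries, 3 nearest genes for each marked member, genes sharing a peak with one, and the HP1 genes. Phc2, Scmh1 and Pcgf5 were named after their values were seen, and 1 other PRC1 gene is not reported here. The fits were also tested on simulated counts. Alternatives covered scaling, DESeq2 1.42.0, the filter, a replicate block, the pseudocount, the peak threshold and overlap, and each library left out. Same-numbered libraries did not deviate together (correlation -0.104 for H3K27me3 and -0.0317 for EZH2). Other calculations used Python 3.11.15, pandas 2.3.3 and scipy 1.17.1.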

Additional observations from a re-analysis of the deposited data

How the results depend on the processing

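With library size only (no TMM), 2176 promoters were lower and 398 higher for H3K27me3, with 1 member lower (Pcgf2) and 1 higher (Bmi1), and values changed sign at Rnf2 (-0.19), Bcorl1 (-0.10) and Auts2 (-0.08). Cbx2, at -0.02 with TMM, had -0.47 with library size only (edgeR adjusted p = 0.243) and -0.15 with all counted reads, changed sign with DESeq2 size factors (0.01), with centring on unmarked promoters (0.08) and with the DESeq2 test (0.0), and lay between -0.17 and 0.12 when a library was left out. The DESeq2 test called 200 promoters lower for H3K27me3. For EZH2, the higher genes were 47 without TMM, 33 when scaled to all counted reads, 2 with DESeq2 size factors, 1 with centring, when Auts2 had -0.02, and 0 with the DESeq2 test (9 at an unadjusted p under 0.05). With the replicate number as a block 3 EZH2 genes were higher, 852 were lower, 406 promoters were lower and 755 higher for H3K27me3, and no call at a member changed. The crossed pairing, added after the data were seen, gave 795 promoters lower and 1185 higher.

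Leaving out 1 library gave 73 to 610 promoters lower and 255 to 797 higher for H3K27me3, with 0 to 2 members higher, the lowest values without control replicate 2. For EZH2 it gave 0 to 1561 genes lower and 0 to 81 higher, with 0 to 1 member lower (Bmi1). The lowest numbers of genes called for EZH2 came without control replicate 1 or 2. Rnf2 changed sign without control replicate 2 for H3K27me3 (range -0.04 to 0.42) and without ex14D replicate 1 for EZH2 (range -0.05 to 0.13). The members with an EZH2 domain in control numbered 3 to 5 when a replicate was left out. Members with an H3K27me3 peak in control fell from 3 to 2 with q under 0.001, and in ex14D from 3 to 2 when the peak had to cover at least 50% of the window. The cause of these changes was not tested. Ring1 and Cbx7 had too few H3K27me3 reads to pass the filter and were not tested, and Rnf2 had 6 to 12 reads in a library.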

Other observations

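Phc2 and Scmh1, genes of the Polyhomeotic and Scm families of PRC1, had an EZH2 domain over the promoter in both control libraries and in neither ex14D library, while the share over all genes went from 16.8% to 10.4%. They and Pcgf5 were picked after their values were seen. Phc2 had an H3K27me3 peak there in all 4 libraries, at 83.8 ± 6.7 CPM in the control and 49.0 ± 4.74 CPM in the ex14D libraries (SD, n = 2 each), and edgeR did not call it (log2 fold change -0.33, adjusted p = 0.59). Its EZH2 counts, which are read over the whole gene and not the promoter alone, were 112 CPM in control and 111 CPM in ex14D on average (log2 fold change -0.06, edgeR adjusted p = 0.743). Scmh1 had an H3K27me3 peak in 1 control library and in both ex14D libraries. Pcgf5, the gene of a Pcgf subunit of variant PRC1, had both kinds of interval over its promoter in all libraries, although its window counts were below input, at 17.5 ± 0.928 CPM in the control and 13.2 ± 2.79 CPM in the ex14D libraries (SD, n = 2 each), with inputs of 56.2 and 31.2 CPM. With all counted reads as the library size the Pcgf5 ratio to input was 0.891 and 1.02 in control and 1.92 and 1.29 in ex14D.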
